A study of Macaca fascicularis with 34 samples.

Results

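The 5 genes described here, MDM2, CDKN1A, BAX, DRAM1 and TP53I3, belong to the p53 pathway and were examined in every cell of a series of 34 single cells of the cynomolgus monkey (Macaca fascicularis). They are 5 of the 28551 genes in the deposited table, found there by their human symbols, and they were picked because of what gonad and embryo cells showed, so the contrast of gonad against embryo is a description of how they were chosen. MDM2 (gene ID 102136323) and DRAM1 (102123394) lie on chromosome 11 in the table, CDKN1A (102136063) on chromosome 4, TP53I3 (102139392) on chromosome 13 and BAX (102132255) on chromosome 19.

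p53 is a transcription factor that is held at a low level by the ubiquitin ligase MDM2, which is itself a p53 target, so that the pathway limits its own activity. When DNA damage or another stress frees p53, it raises genes that stop the cell cycle, repair DNA, alter metabolism and autophagy or start cell death. In mouse germ cells the pathway is known chiefly for removing damaged cells.

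The cells were read with SC3-seq, which sequences the 3′ ends of transcripts from amplified complementary DNA of single cells, in a study of where monkey germ cells arise. The 9 gonad cells came from male gonads, 6 of them at embryonic day (E) 36, 1 at E47 and 2 at E55, and the 25 embryo cells comprise 3 at E13, 1 at E14, 11 at E16, 2 at E17 and 8 at E20. No treatment, genotype or animal is named, so each stage counts as 1 sample, cells are not replicates of it, and no difference was tested. Values are in RPM (reads scaled to the same total in each cell), means are over cells, and a difference is that of mean log2(RPM + 1).

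All 9 gonad cells fell in a germ-cell-like cluster with 17 embryo cells, when cells were clustered without the pathway genes. Each of the 14 germ cell markers had a median of 15 RPM or more over the gonad cells, and their summed level ran from 2437 to 6121 RPM, although DDX4 was at 0 in E36 cells 3 and 5. Gonadal somatic markers summed to between 33.3 and 20424 RPM over the gonad cells. WT1, a somatic marker, was at 141 RPM in E36 cell 5, 21.8 RPM in the E47 cell and 57.2 RPM in E55 cell 2, and at 0 in the other 6. Of these 6, E36 cell 1 held other somatic markers, summing to 478 RPM with NR2F2 at 83.5 and LHX9 at 57.4 RPM, and E36 cell 3 had LHX9 at 35.7 RPM. The remaining 8 cells, E16 cell 8 and E20 cells 1 to 7, held mesoderm markers summing to at least 1389 RPM. Depth lay between 472195 and 3556565 reads per cell with a median of 2001718. All gonad cells share a title code, MS11, with the embryo cells of E17 only, so code and gonad stage cannot otherwise be told apart. Code MS09 covers the E16 cells and E20 cell 8, and MS08 covers E20 cells 1 to 7.

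The regulators of p53 come ahead of its targets in the pathway. MDM4 restrains p53 together with MDM2. Its gonad mean was 52.7 ± 57.6 RPM and its embryo mean 69.3 ± 46.9 RPM (SD over cells, n = 9 and 25). The difference was -1.61. E36 cells 2, 3 and 6 had 1.23, 0 and 1.24 RPM of MDM4, and the other gonad cells ran from 18.9 to 144 RPM. Of the 20 genes measured on the list of p53 relatives and regulators (those reaching a mean of 1 RPM on either side of a comparison), 1 was higher by at least 1 on the log2 scale in gonad cells and 3 were lower, where 7.62% of all 15245 genes were that much higher and 15.1% that much lower. The higher regulator was RCHY1, another ubiquitin ligase acting on p53, with a difference of 1.84, and the lower ones were MDM4, the kinase TP53RK (-1.63) and the damage-sensing kinase ATR (-1.03).

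MDM2 was found in all 34 cells. The E36 cells held 35.7, 61.6, 16.6, 27.7, 30.6 and 19.8 RPM from cell 1 to cell 6, the E47 cell 39.9 RPM, and the E55 cells 35.9 and 387 RPM. Embryo cells ran from 1.49 RPM in E17 cell 1 to 281 RPM in E20 cell 8, with a median of 30.8 RPM. The gonad cells other than E55 cell 2 lay close together inside the embryo range, and that cell stood above all cells of either tissue. MDM2 averaged 72.7 ± 118 RPM in the gonad and 52.0 ± 62.3 RPM in embryo cells (SD, n = 9 and 25), a difference of 0.48 that became 0.09 without E55 cell 2. Among embryo stages, MDM2 at E20 was higher than at E16 by 1.02, with means of 86.9 and 45.2 RPM, in a comparison where 13.9% of genes were higher and 18.9% lower by at least 1. Without E20 cell 8 the E20 mean was 59.1 RPM and the difference 0.70. The remaining E20 cells lie outside the germ-cell-like cluster, as 1 of 11 E16 cells does. They hold title code MS08 and the E16 cells MS09, so stage, cell type and code cannot be told apart in this difference. All 8 E20 cells had 21.8 RPM or more, whereas both E17 cells were low, at 1.49 and 6.07 RPM.

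CDKN1A, whose product p21 blocks cyclin-dependent kinases and halts the cell cycle, was not detected in most cells. Its level was 0 in 26 of the 34 cells. All 6 E36 cells were at 0, which over their 11698881 summed reads allows up to 0.256 RPM, while the E47 cell had 15.4 RPM and the E55 cells 0 and 259 RPM. E55 cell 2 thus held 94.4% of the CDKN1A summed over the gonad cells, from 357 reads (95% Poisson interval 232 to 287 RPM, counting error only). In embryo cells it reached 15 RPM in E13 cells 1 and 2, at 48.7 and 20.6 RPM, and in E20 cell 1, at 24.1 RPM. The highest E16 value was 4.18 RPM. The difference, gonad against embryo, was 0.58 with E55 cell 2 and -0.26 without it.

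BAX, which opens the mitochondrial outer membrane in apoptosis, was low everywhere. It lay between 0 and 19.7 RPM, and 3 of 34 cells reached 15 RPM, namely E36 cell 2 (19.7 RPM), E20 cell 6 (16.3 RPM) and E13 cell 3 (15.4 RPM). Means were 4.62 ± 6.48 RPM in the gonad and 4.39 ± 4.70 RPM in embryo cells (SD, n = 9 and 25), and the difference of -0.12 was far inside the spread between cells. In E55 cell 2, where MDM2 and CDKN1A were at their highest, BAX was at 10.1 RPM from 14 reads.

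DRAM1, a lysosomal membrane protein that promotes autophagy, was the member that set gonad cells apart. The E36 cells held 32.5, 165, 40.6, 174, 12.6 and 38.3 RPM from cell 1 to cell 6, the E47 cell 20.0 RPM, and the E55 cells 162 and 204 RPM. Every gonad cell therefore held the transcript, 8 of 9 at 15 RPM or more, against 7 of 25 embryo cells. Means were 94.4 ± 79.1 RPM in the gonad and 14.3 ± 26.3 RPM in embryo cells (SD, n = 9 and 25), a ratio of 6.62 and a difference of 4.07. Among the 15245 genes measured the difference ranked 8 from the top. It stayed between 3.86 and 4.35 when any cell was left out, and was 3.75 against the 17 germ-cell-like embryo cells, where 9.01% of genes were higher by at least 1. Since the members were chosen on gonad against embryo, the rank and these values describe that choice and are no support for it.

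The embryo cells were not uniformly without DRAM1. At E13 the 3 cells held 40.2, 37.4 and 63.1 RPM, and the E14 cell held 15.2 RPM. At E16 cells 6, 7, 8 and 9 had 27.9, 40.6, 108 and 14.2 RPM, and the other 7 had at most 0.368 RPM, which is a lone read. E16 cell 8, the highest, lies outside the germ-cell-like cluster, with mesoderm markers summing to 14965 RPM, and their part in the value was not tested. At E17 both cells had a lone read, 0.373 and 0.357 RPM, and at E20 the gene was at 0 in 6 cells, with 6.87 RPM in cell 1 and 1.48 RPM in cell 8, a difference of -1.44 from E16, or -0.96 when E16 cell 8 was left out.

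Ordered by day, DRAM1 was thus present in every cell at E13 and E14, present in some cells at E16, low or at 0 at E17 and E20, and present in every gonad cell. Of the 10 cells of E17 and E20, both E17 cells and E20 cell 8 are germ-cell-like by cluster, with at most 1.48 RPM. E20 cells 1 to 7 are not, and they share title code MS08. Day, cell type and code cannot be told apart for those 7. All 9 gonad cells lay above all 10 cells of E17 and E20, a separation that 0.120% of 15010 genes showed in that direction. Because the members were chosen on gonad against embryo, this share is given as description. For E16 against E13 the DRAM1 difference was -3.57, with means of 17.4 ± 33.2 RPM at E16 and 46.9 ± 14.1 RPM at E13 (SD, n = 11 and 3), and -4.05 without E16 cell 8, where the E16 mean was 8.34 ± 14.7 RPM. Over all cells of both stages 23.3% of genes were higher and 17.2% lower by at least 1. The E13 cells share their own title code, MS10, and had the fewest reads of the series, between 472195 and 775710, so that stage, code and depth cannot be told apart there.

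**Figure D1:**
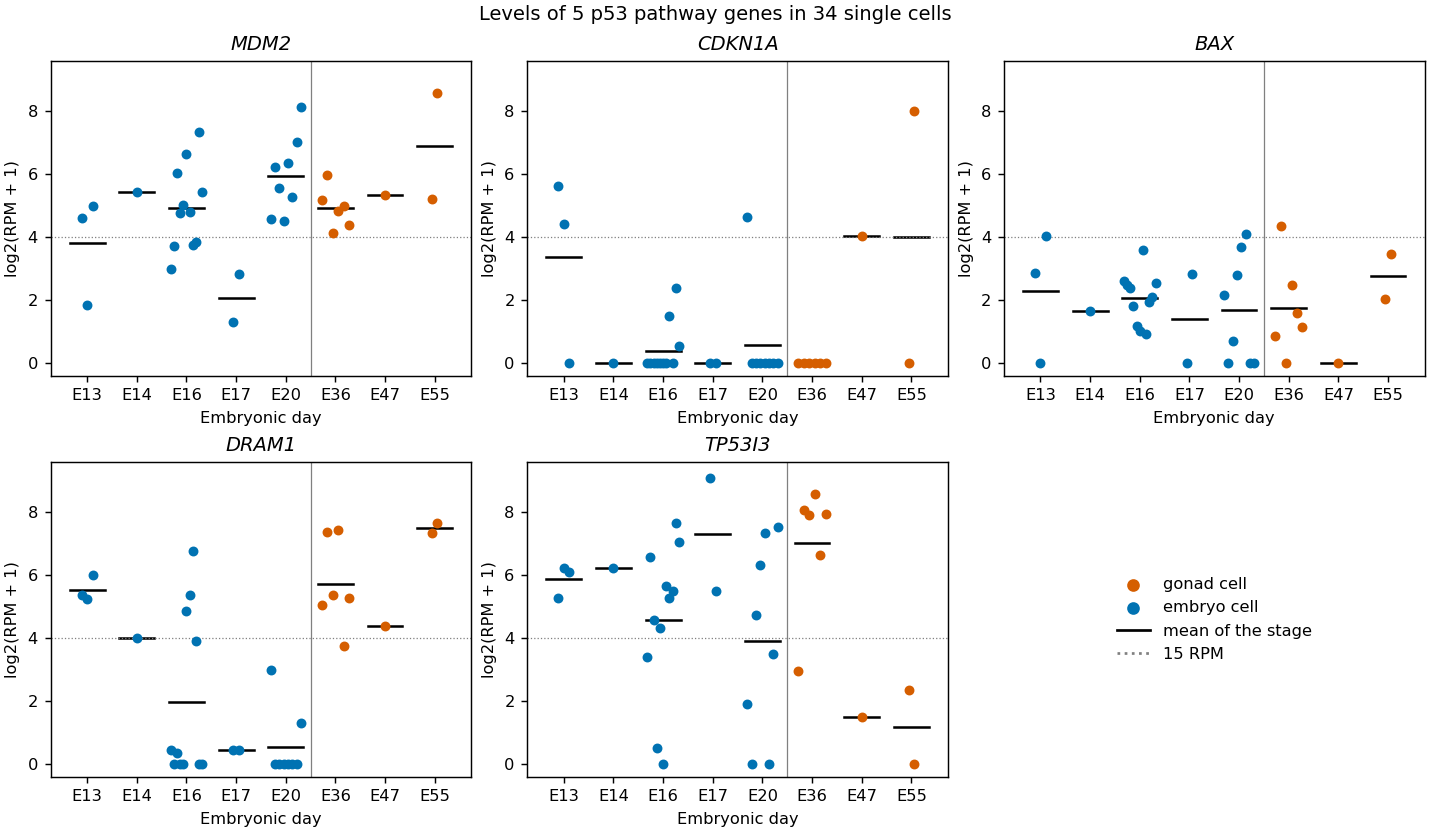
Levels of the 5 genes as log2(RPM + 1) (vertical axes) at each embryonic day (horizontal axes), 1 point per cell, orange for gonad and blue for embryo, with a bar at the mean of each stage and a dotted line at 15 RPM. DRAM1 is present in every gonad cell, TP53I3 is near 0 in the E47 and E55 cells, and a single E55 cell carries the highest MDM2 and CDKN1A.

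TP53I3, a quinone oxidoreductase-like enzyme known in human cells as PIG3 and linked to oxidative stress during p53-driven death, had another course. The E36 cells held 6.82, 267, 242, 388, 98.8 and 247 RPM from cell 1 to cell 6, the E47 cell 1.81 RPM, and the E55 cells 4.10 and 0 RPM. The 3 later cells together had 6 reads of TP53I3, or 1.73 RPM (Poisson interval 0.637 to 3.78 RPM), against 2226 reads, or 190 RPM (182 to 198 RPM), at E36. All later cells lay below all E36 cells, a separation that 1.37% of 14020 genes showed in that direction, and the difference was -5.75, where 6.17% of genes were lower by at least 1. This comparison was chosen after the values were seen. Depth was 975834 to 1380686 reads in the later cells. E36 cells 2 and 6 had fewer, 811994 and 809113, and held 267 and 247 RPM. Of the 3 later cells, the E47 cell and E55 cell 2 held WT1. E55 cell 1, with WT1 at 0, had 4.10 RPM, and E36 cell 5, with WT1 at 141 RPM, had 98.8 RPM. The part of depth and of somatic transcripts in the difference was not tested.

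In embryo cells TP53I3 was common. It ran from 38.1 to 74.8 RPM in the 3 E13 cells, was 73.6 RPM at E14, and spread over 0 to 200 RPM at E16, with a median of 38.0 RPM. The highest value of the series was 551 RPM in E17 cell 1, and E17 cell 2 had 44.3 RPM. E20 cells ranged from 0 to 186 RPM with a median of 17.9 RPM. The E36 cells other than cell 1 lay in the upper part of this spread, and the later cells at its bottom.

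As a result TP53I3 differed little between all gonad and all embryo cells. Its means were 139 ± 148 RPM in the gonad and 77.0 ± 115 RPM in embryo cells (SD, n = 9 and 25), a difference of 0.30 that turned to -0.26 against the germ-cell-like embryo cells, to -0.14 without E36 cell 4 and to 0.93 without E55 cell 2. E36 against E16 gave a larger difference, 2.43, with means of 208 ± 135 and 55.7 ± 62.9 RPM (SD, n = 6 and 11), where 7.28% of genes were higher and 30.2% lower by at least 1. DRAM1 differed by 3.75 in the same comparison, with means of 77.2 ± 72.3 RPM at E36 and 17.4 ± 33.2 RPM at E16, and by 4.22 without E16 cell 8. MDM2 (-0.03), CDKN1A (-0.40) and BAX (-0.31) were each within 1 on the log2 scale there. Within title code MS11, gonad against the 2 E17 cells gave 5.52 for DRAM1 and -2.19 for TP53I3, where 25.6% of genes were higher and 23.1% lower by at least 1. MDM2 differed by 3.34, CDKN1A by 1.34 and BAX by 0.36 in that comparison.

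From cell to cell, the relation of DRAM1 to TP53I3 in the gonad depended on E55 cell 2 and on the measure. Pearson's r of log2(RPM + 1) was -0.06 over the 9 gonad cells (Spearman's rho 0.15), and between -0.26 and 0.24 when any gonad cell was left out. Spearman's rho was 0.64 without E55 cell 2, -0.02 to 0.24 without any other cell in turn, and 0.60 without the 3 cells with WT1. Within the 6 E36 cells r was 0.48 and rho 0.89, cells 2 and 4 holding the most and cells 1 and 5 the least of both. Within the 11 E16 cells r was -0.14 and rho -0.25. Over all 34 cells r was 0.05, which placed TP53I3 at rank 3830 of 9589 genes by likeness to DRAM1. These correlations are descriptive, since cells share a stage, a title code and a depth, and the E36 value rests on 6 cells.

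**Figure D2:**
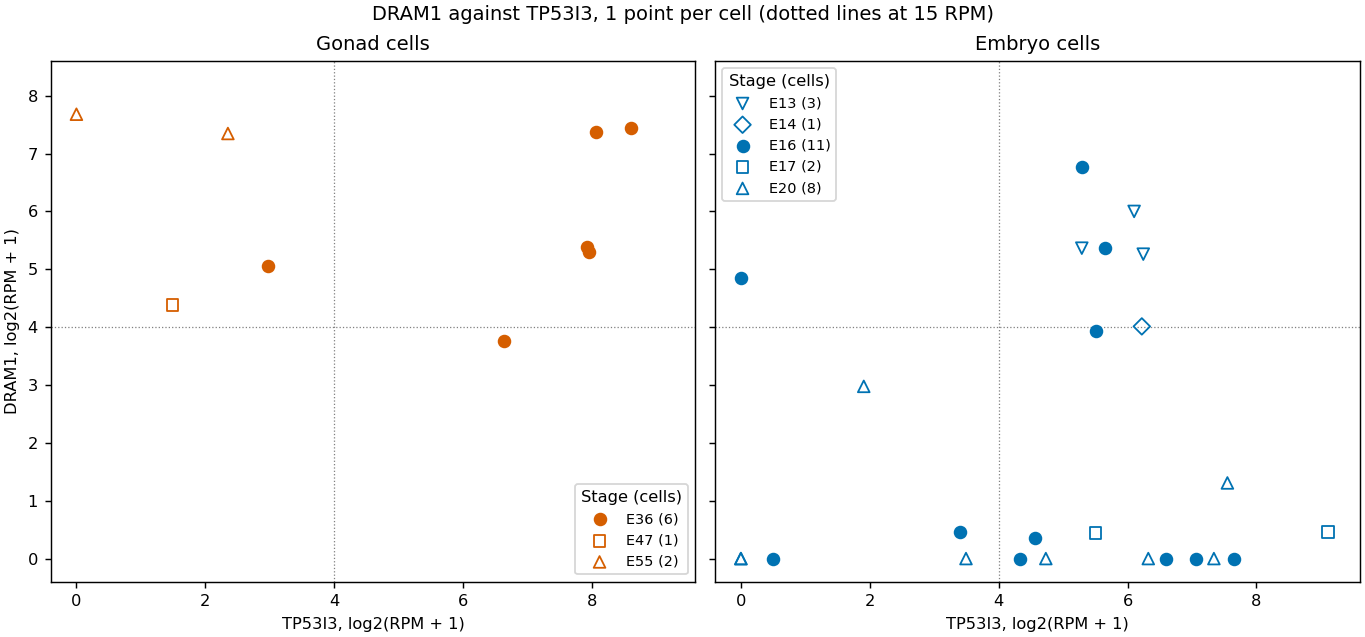
DRAM1 (vertical axis) against TP53I3 (horizontal axis), both as log2(RPM + 1), 1 point per cell, with gonad cells in the left panel, embryo cells in the right panel, symbols by stage and dotted lines at 15 RPM. The E55 cells sit at the upper left, with DRAM1 at 162 and 204 RPM and TP53I3 at 4.10 and 0 RPM; 4 of 6 E36 cells have both genes at more than 35 RPM.

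The genes whose pattern over the 34 cells was most like DRAM1 were SPATA22 (r = 0.73), known for meiotic recombination, DPPA3 (0.73), a germ cell marker, NLRP7 (0.68), the elongation factor subunit EEF1G (0.64) and CYTH1 (0.63). Those most like TP53I3 included the ribosomal protein gene RPL23 (0.64), GNB2L1 (0.61), RPS13 (0.60), also ribosomal, and ZYX (0.60). None of these is in the p53 target lists used here, but only 52 genes of those lists were among the 9589 compared. With so few, finding none at the top does not tell whether DRAM1 and TP53I3 follow p53 targets. CDKN1A ranked 479 by likeness to DRAM1, with r = 0.34, and MDM2 ranked 4542. By likeness to TP53I3, MDM2 ranked 8224 and CDKN1A 8043 of 9589, with r of -0.29 and -0.28.

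The other p53 targets lay on both sides of 0. Of 72 symbols listed 67 were in the table and 63 were measured. The lists group targets by role and do not state whether p53 raises or lowers each gene. Counts of higher and lower targets therefore do not give the direction of p53 activity. In gonad cells 9 of these were higher by at least 1 and 7 were lower, 14.3% and 11.1%, against 7.62% and 15.1% of all genes, and their median difference was -0.05 where that of all genes was -0.17. Of the 48 that reached a mean of 15 RPM on either side, 9 were higher and 5 lower, 18.8% and 10.4%, against 10.9% and 19.7% of all genes at that level. Against germ-cell-like embryo cells 10 of 62 were higher, 16.1%, and 8 lower, 12.9%, where 9.01% and 13.96% of all genes were. By role, 2 of 21 cell cycle and growth targets were higher and 3 lower, as were 4 and 4 of 19 apoptosis targets, 1 and 0 of 10 DNA repair targets, and 2 and 1 of 14 metabolism and autophagy targets. No other target differed by as much as DRAM1. When the 3 gonad cells with WT1 were left out and the rest set against germ-cell-like embryo cells, 7 of 60 were higher and 14 lower, 11.7% and 23.3%, where 7.96% and 24.1% of all genes were.

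Among the higher targets, PHLDA3, which restrains AKT signalling, had a difference of 2.52 and was at 26.3 to 109 RPM in gonad cells, against 0 to 182 RPM in embryo cells. Its mean was 64.2 RPM in gonad cells, against 56.0 RPM in embryo cells of the germ-cell-like cluster, for a difference of 1.31. UVRAG, which like DRAM1 acts in autophagy, followed at 2.21, with 50.3 ± 44.0 RPM in the gonad and 13.7 ± 14.3 RPM in embryo cells. ZMAT3, an RNA-binding protein, differed by 1.99, with 90.2 ± 53.5 and 41.4 ± 40.9 RPM. The others were BLCAP (1.90), the death receptor FAS (1.74), the nuclease AEN (1.45), C12orf5, also called TIGAR, which slows glycolysis (1.33), the ribonucleotide reductase subunit RRM2B (1.32) and the membrane protein PERP (1.32). All 9 were higher by at least 1 against the germ-cell-like embryo cells too, and 7 of them still were without the 3 gonad cells with WT1, FAS (0.92) and RRM2B (0.83) being under 1. Both comparisons reuse cells by which the 9 were picked, and the share of all higher genes that stayed higher was not computed. These counts are therefore description only.

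The lower targets included GTSE1 (-2.68) and the mitotic phosphatase CDC25C (-1.77), which are expressed late in the cell cycle. GTSE1 reached 15 RPM in 3 of 9 gonad cells, against 18 of 25 embryo cells. These 3 were the cells with WT1, E36 cell 5 (61.1 RPM), the E47 cell (15.4 RPM) and E55 cell 2 (52.9 RPM). The other gonad cells had at most 5.00 RPM of GTSE1. The part of somatic transcripts in the GTSE1 values was not tested. Of the apoptosis genes, the BH3-only protein BID (-2.16), CYFIP2 (-2.38), STEAP3 (-1.18, at 0 in every gonad cell) and the apoptosome component APAF1 (-1.04) were lower, and so was IGFBP3 (-2.04), a binding protein that holds insulin-like growth factors. The embryo level of IGFBP3 lay mostly in E20 cells 1, 3, 4 and 5, all outside the germ-cell-like cluster, at 590 to 1374 RPM, and against the germ-cell-like embryo cells IGFBP3 differed by -0.90 and APAF1 by -0.75. APAF1 was under 15 RPM in all cells of both tissues.

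**Figure D3:**
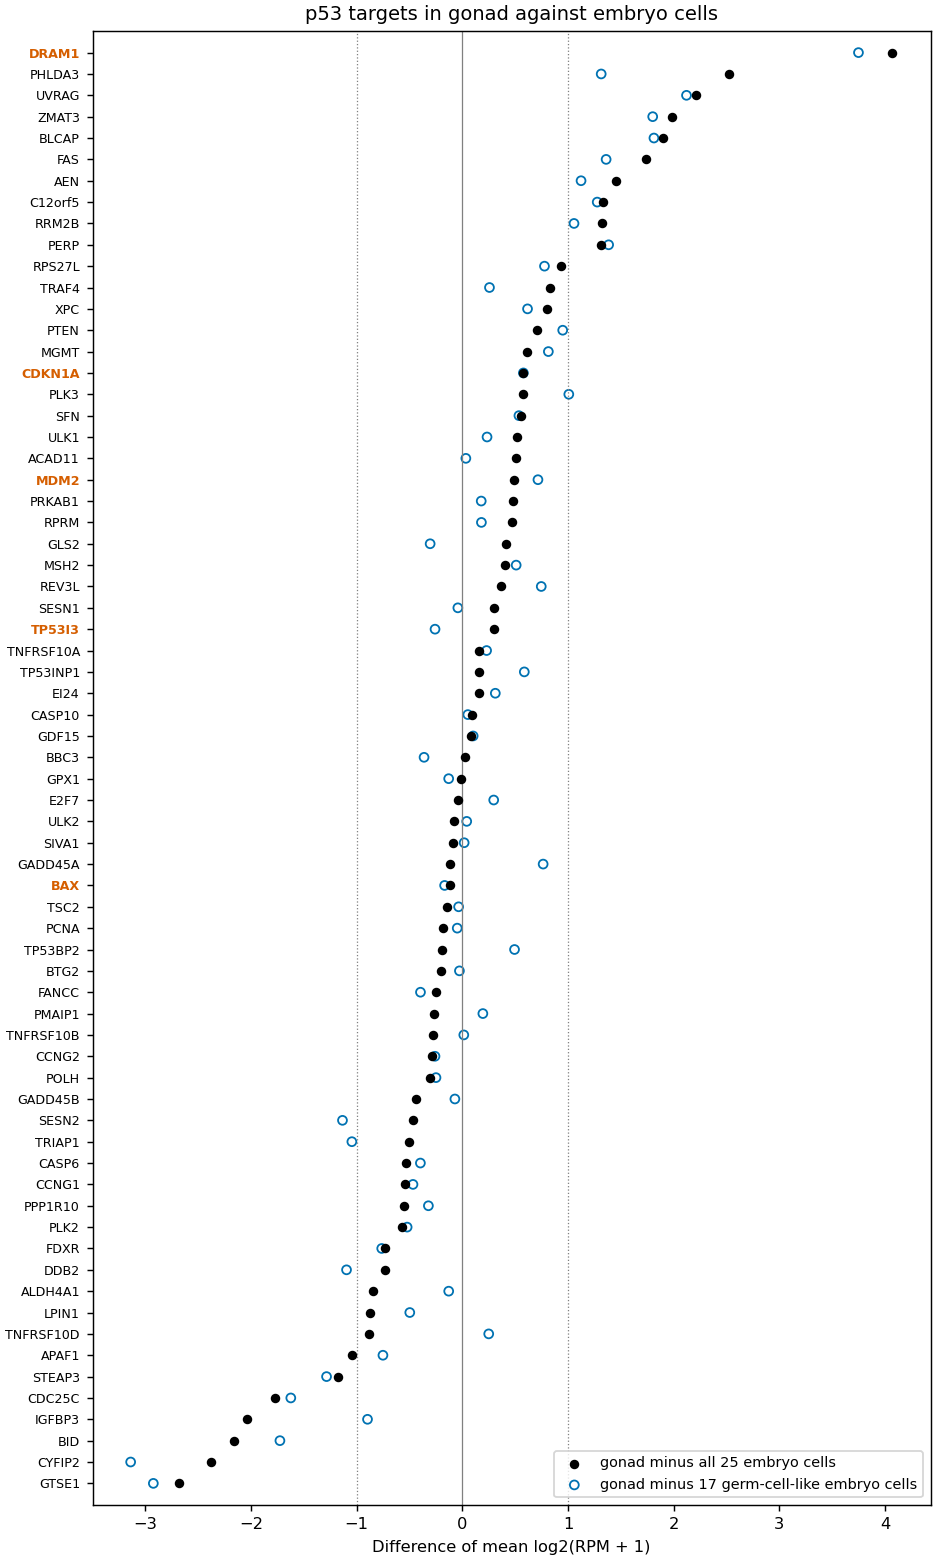
Difference of mean log2(RPM + 1), gonad minus embryo, for the measured p53 targets ranked from highest (top) to lowest, with the 5 members in orange; black points use all 25 embryo cells, open blue circles the 17 germ-cell-like ones, and dotted lines stand at -1 and 1. DRAM1 is at the top with 4.07, MDM2, CDKN1A, TP53I3 and BAX lie between -0.12 and 0.58, and most targets lie between the dotted lines.

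Cell by cell within the gonad, 30 of 52 other targets had a correlation above 0 with DRAM1 and 12 of 52 with TP53I3, with median r of 0.09 and -0.23 over the 9 cells. The targets with the most positive r to DRAM1 were GPX1 (0.69), SIVA1 (0.67) and RPS27L (0.63), and the most negative to TP53I3 were FAS (-0.92), ALDH4A1 (-0.81) and TRIAP1 (-0.79). In the 11 E16 cells the same counts were 29 of 52 for DRAM1 and 38 of 52 for TP53I3. The share over all genes was not computed for any of these counts, so they are not a result about p53 targets. TP53I3 was near 0 in the E47 and E55 cells. There 42.7% of all genes were higher by at least 1 than at E36, and 6.17% were lower.

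The highest MDM2 and CDKN1A of the series were in E55 cell 2, a cell singled out after its values were seen. In it MDM2 was at 387 RPM, against a mean of 33.5 ± 13.9 RPM in the other 8 gonad cells (SD), and CDKN1A at 259 RPM, against 1.93 ± 5.45 RPM. It held the highest of the 9 gonad values for 23 of the 54 targets that reached 15 RPM in any gonad cell, 42.6%, whereas it held that place for 13.3% of all 11626 such genes. The other gonad cells held it for 2 to 7 targets each, 3.704% to 12.96%. They held it for 8.47% to 14.8% of all genes. Of these cells, only E36 cell 4 had a larger share of targets than of all genes, 12.96% against 10.2%. Of 61 targets measured, 43 were higher by at least 1 in E55 cell 2 than in the other gonad cells and 4 were lower, 70.5% and 6.56%, where 40.8% and 14.2% of all genes were. In the other 8 cells, each set against the rest in the same way, 16.4% to 33.9% of targets were higher. The shares of all genes that were higher in those cells ran from 19.9% to 47.2%.

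These targets came from each of the listed roles. Of the cell cycle and growth targets 16 of 21 were higher, including BTG2, an antiproliferative factor, at 160 RPM here against a mean of 1.47 RPM in the others, SESN1, a stress-induced brake on growth signalling, at 271 RPM against at most 156 RPM, and cyclin G1 (CCNG1) at 1106 against a mean of 262 RPM. Of the apoptosis targets 12 of 18 were, including the BH3-only genes PMAIP1 (343 against a mean of 23.0 RPM) and BBC3 (37.7 against 1.51 RPM) and the death receptors TNFRSF10B (148 against at most 4.07 RPM) and FAS (76.8 against 14.2 RPM). Of the repair targets 7 of 9 were, such as DDB2, which recognises ultraviolet damage, at 68.1 against 4.49 RPM. Of the metabolism and autophagy targets 8 of 14 were, 57.1%, where 40.8% of all genes were. Among the regulators, the phosphatase PPM1D, also a p53 target, was at 116 against a mean of 21.5 RPM. MDM4 was at 144 against a mean of 41.3 RPM, with 140 RPM in E36 cell 4.

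Neither DRAM1 nor TP53I3 marked this cell off in the way MDM2 and CDKN1A did. Its DRAM1 of 204 RPM was the highest of the gonad, but E36 cells 2 and 4 and E55 cell 1 had 165, 174 and 162 RPM with CDKN1A at 0 and MDM2 at 61.6, 27.7 and 35.9 RPM. Its TP53I3 was 0, close to the 4.10 and 1.81 RPM of E55 cell 1 and the E47 cell, and its BAX of 10.1 RPM lay inside the range of the other gonad cells. E55 cell 1, of the same stage and title code, had BTG2, TNFRSF10B and CDKN1A at 0. E55 cell 2 also held WT1 (57.2 RPM), AMH (29.7 RPM) and DHH (76.0 RPM) beside DDX4 (129 RPM), and its 14 gonadal somatic markers summed to 481 RPM. Their part in the result was not tested. The E47 cell, whose markers summed to 20424 RPM, had 21 of 62 targets higher, where 47.2% of all its genes were. E36 cell 5, at 1088 RPM, had 17 of 61, where 31.4% were. The somatic markers held were not the same in these cells. INSL3 was at 15703 RPM in the E47 cell, 0.34 RPM in E36 cell 5 and 5.79 RPM in E55 cell 2. AMH and DHH were at 22.7 and 6.35 RPM in the E47 cell and at 0 in E36 cell 5.

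**Figure D4:**
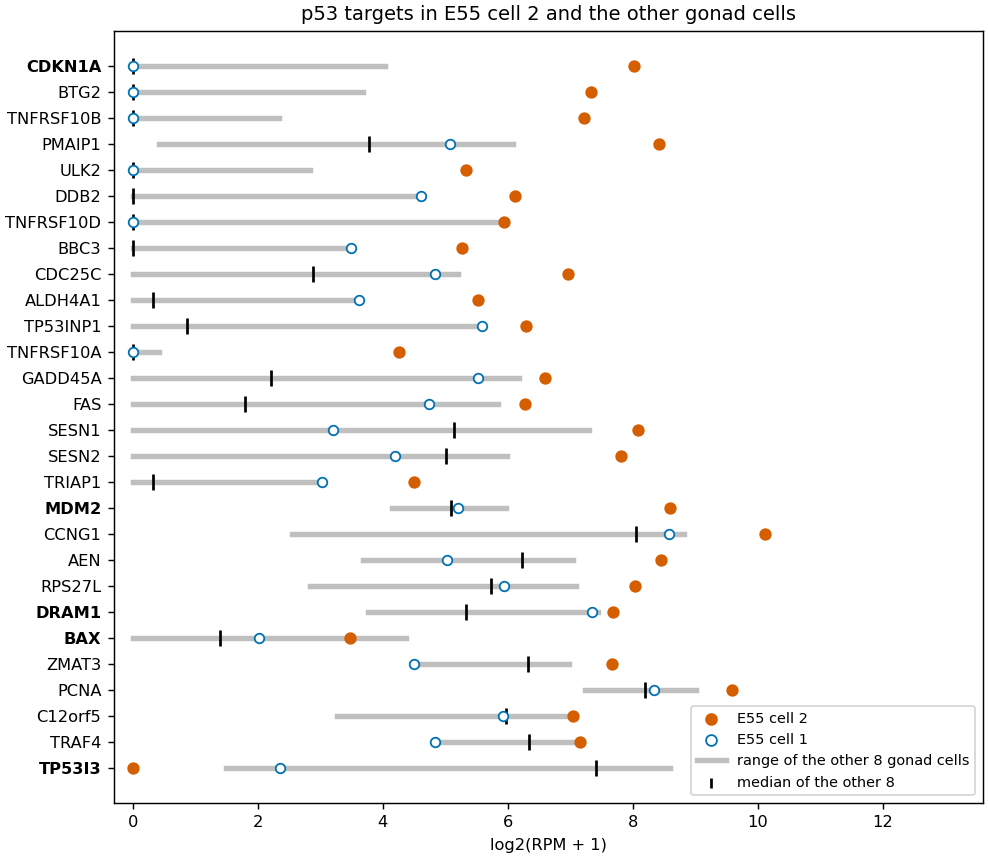
Levels as log2(RPM + 1) (horizontal axis) of the 23 p53 targets whose highest gonad value was in E55 cell 2, and of the 5 members in bold, in E55 cell 2 (orange), E55 cell 1 (open blue) and the other 8 gonad cells, which include E55 cell 1 (grey range, black mark at the median). MDM2 and CDKN1A lie far outside the grey range, DRAM1 just above it, BAX inside it and TP53I3 at 0 below it.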

How the data were processed

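The authors deposited 1 table of RPM for the 34 cells, on a log2 scale as log2(RPM + 1); the submitters' processing notes name cutadapt 1.3, TopHat 1.4.1 and Cufflinks 2.2.0, and the genome build, like the annotation, was not given in the sources used here. Values were back-transformed to RPM, and reads per cell recovered from the value of 1 read (99.7% to 100% of low values were whole within 0.1 read). All columns belong to the 34 cells, and the highest correlation between 2 cells was 0.883. The members and gene lists were chosen with earlier results of these data known. Differences are of mean log2(RPM + 1), which understates the change of low genes, and count as higher or lower from 1 on that scale. Poisson intervals (95%) and the limit of 3 reads for a count of 0 cover counting error only, since reads carry no molecular identifiers. Cells were clustered by Ward's method (scipy 1.17.1) on the 1000 most variable genes without the pathway lists, into 2 clusters, with the same clusters from 500 or 2000 genes. Doublets were not called. Named targets were the 10 highest and 10 lowest differences and the 5 highest levels, with 3 and 3 from each smaller list, and any regulator; values of single cells, of E55 cell 2 and of the stage separations were chosen after being seen. The scripts were tested on simulated data. All 5 gene IDs were found in RefSeq's table; no sequence or coordinate is given, since no build is stated. Some genes that the naming rule picks are not reported here.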

Additional observations from a re-analysis of the deposited data

Results flagged for a closer look

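In 9 sets of values, those of a member within E20 or E36, the highest or lowest cell was compared with its nearest neighbour. In 3 sets that cell lay far from the others. The rule is meant to flag about 1 in 20 such sets by chance. That rate does not hold where most cells are at 0, as for CDKN1A (7 of 8 E20 cells) and DRAM1 (6 of 8). The 3 flags are therefore not read as more than chance gives. CDKN1A was at 24.1 RPM in E20 cell 1 and at 0 in the other 7 E20 cells. DRAM1 was at 6.87 RPM in the same cell, from 10 reads, where the other E20 cells had at most 1.48 RPM. E20 cell 1 lies outside the germ-cell-like cluster, and its blood and endothelium markers summed to 1991 RPM, with CDH5 at 1202 and KDR at 598 RPM, where those of the other E20 cells summed to 2.95 to 305 RPM. Their part in both values was not tested. TP53I3 was at 6.82 RPM in E36 cell 1, from 17 reads of 2491852, where the other E36 cells had 98.8 RPM or more. Distances were taken on the log2 scale, and no cause was tested.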

How the results depend on the processing

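No difference of 1 or more among those reported with alternatives changed sign, and 555 of 582 alternative values moved by less than the spread between cells or by less than 1.5 times. The DRAM1 difference, gonad against embryo, was 5.80 with a pseudocount of 0.1 and 2.16 with 10, and E36 against E16 gave 5.53, 1.86 and, from the ratio of means, 2.09; leaving out any cell gave 3.86 to 4.35 and 3.40 to 4.22. Within title code MS11 the MDM2 difference was 3.34 and that of TP53I3, 0.30 over all cells, was -2.19; without the 3 gonad cells with WT1 TP53I3 was higher in the gonad by more than 1. The 9 higher targets became 4 with a pseudocount of 10 (6.35%, all genes 2.09%) and 22 within MS11 (36.1%, all genes 25.6%), and 9 to 12 with any cell left out. The 7 lower ones became 14 with a pseudocount of 0.1 (22.2%, all genes 26.7%), 4 with 10 (6.35%, 3.38%), 13 from medians (20.6%, 16.02%), 12 within MS11 (19.7%, 23.1%), 17 without the 3 gonad cells with WT1 (27.9%, 25.5%), 19 for E36 against E16 (31.1%, 30.2%) and, chosen after seeing the data, 14 without those 3 against germ-cell-like embryo cells (23.3%, 24.1%). They were 6 to 12 with any cell left out, and 12 without E55 cell 2 (19.4%, 17.7%). In E55 cell 2 the share of higher targets was 49.2% to 73.6% over the other settings, added after seeing the data, where 21.2% to 49.0% of all genes were higher. The cause of these shifts was not tested. No paired analysis was possible because the labels give no replicate numbers and no test was made. Depth limits statements on BAX, whose values rest on 0 to 26 reads per cell, and on genes at 0.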

Other observations

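Further lists around the members showed these differences, gonad against embryo, where 7.62% of all genes were higher and 15.1% lower by at least 1. Of 11 measured BCL2 family genes, which decide whether BAX is active, 2 were higher and 0 lower. The BH3-only gene BCL2L11 (BIM) was at 15 RPM or more in 6 of 9 gonad cells and 3 of 25 embryo cells, with means of 24.2 ± 20.0 and 3.21 ± 8.30 RPM (SD) and a difference of 2.70. BCL2, which opposes it, reached 15 RPM in 3 gonad cells and 2 embryo cells, a difference of 1.10. These 3 were the cells with WT1, E36 cell 5 (48.2 RPM), the E47 cell (34.5 RPM) and E55 cell 2 (18.1 RPM), and BCL2 was at 0 in the other 6. Without the 3, and against germ-cell-like embryo cells, the difference was -0.27 for BCL2 and 2.07 for BCL2L11. The part of somatic transcripts in the BCL2 value was not tested.

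Of 20 autophagy and lysosome genes, the setting in which DRAM1 acts, 3 were higher and 2 lower. SQSTM1, a cargo receptor, had 71.0 ± 47.8 RPM in the gonad and 35.8 ± 31.7 RPM in the embryo (1.64), ATG5 had 123 ± 47.8 and 71.1 ± 56.8 RPM (1.49), and MAP1LC3B had 488 ± 237 and 226 ± 124 RPM (1.17). DRAM2, the relative of DRAM1, was lower, with 33.4 ± 27.9 and 55.6 ± 48.6 RPM (-1.02), and MAP1LC3A was at -1.13. Of 13 redox genes 0 were higher and 2 lower, NQO1 (-1.83) and CRYZL1 (-1.16), which is related in sequence family to TP53I3. Of 14 immediate early and heat shock genes, which respond to handling and stress, 1 was higher, DDIT4 (1.38), and 4 were lower, FOS (-2.93), DNAJB1 (-1.29), ATF3 (-1.18) and EGR1 (-1.10). Against the 17 germ-cell-like embryo cells, several of these were within 1 on the log2 scale, namely MAP1LC3B (0.86), DRAM2 (-0.83), CRYZL1 (-0.64), DDIT4 (0.42), ATF3 (-0.19) and EGR1 (-0.95). ATF3 was highest in E20 cells 1, 4 and 5, outside that cluster, at 131, 169 and 88.5 RPM. Levels of these lists share cells, title codes and depth with the members.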
